A study of Homo sapiens with 6 samples.

Results

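The cluster of miR-532, miR-188, miR-362, miR-500 and miR-660 is a run of 8 miRNA genes on the X chromosome, and 10 of its mature miRNAs were followed in Panc-1, a cell line derived from pancreatic ductal adenocarcinoma (PDAC). The 10 were taken by name, from the cluster they belong to and not from their values, among the 2565 miRNA probes of the array. They were hsa-miR-532-5p, hsa-miR-532-3p, hsa-miR-188-5p, hsa-miR-362-5p, hsa-miR-362-3p, hsa-miR-500a-3p, hsa-miR-501-3p, hsa-miR-501-5p, hsa-miR-502-3p and hsa-miR-660-5p. The other 6 products of the same hairpins were described as a second list. Control cells received no TGF-β (3 arrays), and treated cells were kept for 72 h at a TGF-β dose of 10 ng/mL (3 arrays). TGF-β is a cytokine that induces epithelial–mesenchymal transition. Both groups were the same line, with no other agent or genetic change in the labels. The labels do not say whether the 3 samples of a group came from separate cultures, so p-values measure the spread between these samples, which may be technical. The control arrays shared 1 slide and the TGF-β arrays shared another, so slide and treatment cannot be told apart. Each array was a bulk extract of total RNA, in which fewer cells of a type and less RNA per cell cannot be told apart.

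A miRNA hairpin is cut out of a long primary transcript and then trimmed to a short duplex, whose 5p strand comes from the left arm of the hairpin and whose 3p strand from the right arm. One or both strands are loaded into Argonaute, and the seed, the stretch from base 2 to base 8, sets most of the pairing with target mRNAs. miRNAs of a cluster can be cut from 1 shared transcript, so that their levels often follow each other. This cluster is known for lying in an intron of CLCN5, the gene of an endosomal chloride and proton exchanger, and most of its members have been studied in tumours.

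In the RefSeq annotation of GRCh38.p14 the 8 genes lay at chrX:50003148-50014683, a span of 11536 bases on the plus strand, and all 8 were inside the interval of CLCN5 (chrX:49922596-50099230). MIR532 came first, with MIR188 264 bases after it. MIR500A, MIR362, MIR501 and MIR500B followed after a gap of 4842 bases, with gaps of 449 to 866 bases among themselves, and MIR660 and MIR502 ended the run after gaps of 2490 and 1260 bases. The array files name no genome build. Mature sequences from RefSeq were matched for 9 of the 10 members and for all 6 other products. They are shown because several members are close copies of each other, which bears on how separately their probes can be read. Capitals mark the seed.

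The 3p strands of MIR500A, MIR501 and MIR502, with that of MIR500B from the second list, lie 2 to 7 edits apart, an edit being a base changed, added or lost:
hsa-miR-500a-3p: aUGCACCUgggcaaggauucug
hsa-miR-501-3p: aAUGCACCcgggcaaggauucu
hsa-miR-502-3p: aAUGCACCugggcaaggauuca
hsa-miR-500b-3p: gCACCCAGgcaaggauucug

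The next 3, all 5p strands, start alike, and hsa-miR-362-5p has the seed of hsa-miR-500b-5p:
hsa-miR-362-5p: aAUCCUUGgaaccuaggugugagu
hsa-miR-501-5p: aAUCCUUUgucccugggugaga
hsa-miR-500b-5p: aAUCCUUGcuaccugggu

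Each of the other members with a sequence has a seed that no other product of the cluster has:
hsa-miR-532-5p: cAUGCCUUgaguguaggaccgu
hsa-miR-532-3p: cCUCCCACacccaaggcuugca
hsa-miR-188-5p: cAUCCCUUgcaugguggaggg
hsa-miR-362-3p: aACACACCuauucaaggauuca

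hsa-miR-501-3p and hsa-miR-502-3p had the same seed and were 2 edits apart over their length. hsa-miR-500a-3p was 3 edits from either, and shared an unbroken run of 20 bases with hsa-miR-502-3p. Among the 2550 probes that name a single miRNA, of which 2253 had a sequence in the table, those outside the cluster with the seed of a member were hsa-miR-329-3p, with the seed of hsa-miR-362-3p, and hsa-miR-6866-3p, with that of hsa-miR-188-5p. How far the probes tell close copies apart is not given in the files.

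All 10 members were detected on all 6 arrays, and so were the other 6 products. Detection was a spot signal above the mean of the array's blank spots by 2 SDs, which gave limits of 19.5 to 22.8 intensity units. Over the whole array 1531 to 1787 miRNAs were detected per array. Between arrays the log2 values of the 1282 miRNAs detected on all 6 had correlations of 0.984 to 0.992, across miRNAs that are not independent replicates. Of the markers of cell types, the epithelial miR-200c-3p, miR-141-3p and miR-205-5p were detected on 1, 0 and 1 of the 6 arrays. Those of blood (miR-451a, miR-142-3p and miR-223-3p) were detected on 5, 6 and 4 arrays, and those of acinar pancreas (miR-216a-5p and miR-217) on 2 and 0. The markers of liver (miR-122-5p) and islets (miR-375) were detected on 3 and 1. All of these gave at most 29.1 units, and miR-142-3p was the only one of the 10 markers detected on all 6 arrays. The part of other cells in the cluster's signals was not tested.

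The spots of hsa-miR-660-5p, which has been studied as a regulator of MDM2 in lung cancer, gave 200, 221 and 308 units without TGF-β and 218, 292 and 251 with it (replicates 1, 2 and 3). These were 279 to 516 blank SDs above the blank mean. The groups overlapped, with the highest value on control replicate 3 and the lowest on control replicate 1.

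hsa-miR-362-3p gave 157, 206 and 287 units without TGF-β and 197, 228 and 186 with it. All 3 TGF-β arrays lay inside the range of the control arrays. Its partner strand hsa-miR-362-5p, studied as a repressor of the deubiquitinase CYLD, gave 87.4, 99.8 and 112 units without TGF-β and 83.7, 99.3 and 94.3 with it.

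hsa-miR-532-5p, described as a regulator of RUNX3, gave 152, 159 and 202 units without TGF-β and 146, 176 and 180 with it. hsa-miR-532-3p gave 63.3, 67.2 and 74.6 units without TGF-β and 61.5, 60.4 and 68.9 with it. Both overlapped between the groups, as did the signals of all 10 members before the blank mean was subtracted. With it subtracted and no normalization between arrays, the groups of 1 member, hsa-miR-500a-3p, did not overlap.

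The other 5 members were dimmer but clear of the blank spots. hsa-miR-188-5p, known for its part in the choice of bone marrow stromal cells between bone and fat, gave 37.7, 39.5 and 49.8 units without TGF-β and 41.4, 39.2 and 38.8 with it. The 3p strands of MIR500A, MIR501 and MIR502 gave 37.5 to 51.7 units over all arrays, 27.5 blank SDs or more above the blank mean. hsa-miR-501-5p was the nearest to the limit, with 27.3, 26.8 and 31.2 units without TGF-β and 28.6, 26.4 and 29.3 with it, 12.3 to 14.5 blank SDs above the blank mean. The blood marker miR-142-3p reached 29.1 units, 10.1 blank SDs, on control replicate 3. Of the other products, hsa-miR-188-3p was 9.02 to 14.7 blank SDs above the blank mean. Whether signals this dim come from expression was not tested. Brightness depends on the probe as well as on the miRNA, so the order of the spots is not an order of abundance. On control replicate 3, where the blank spots were also brightest (21.3 units), all 10 members had their highest signal.

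**Figure D1:**
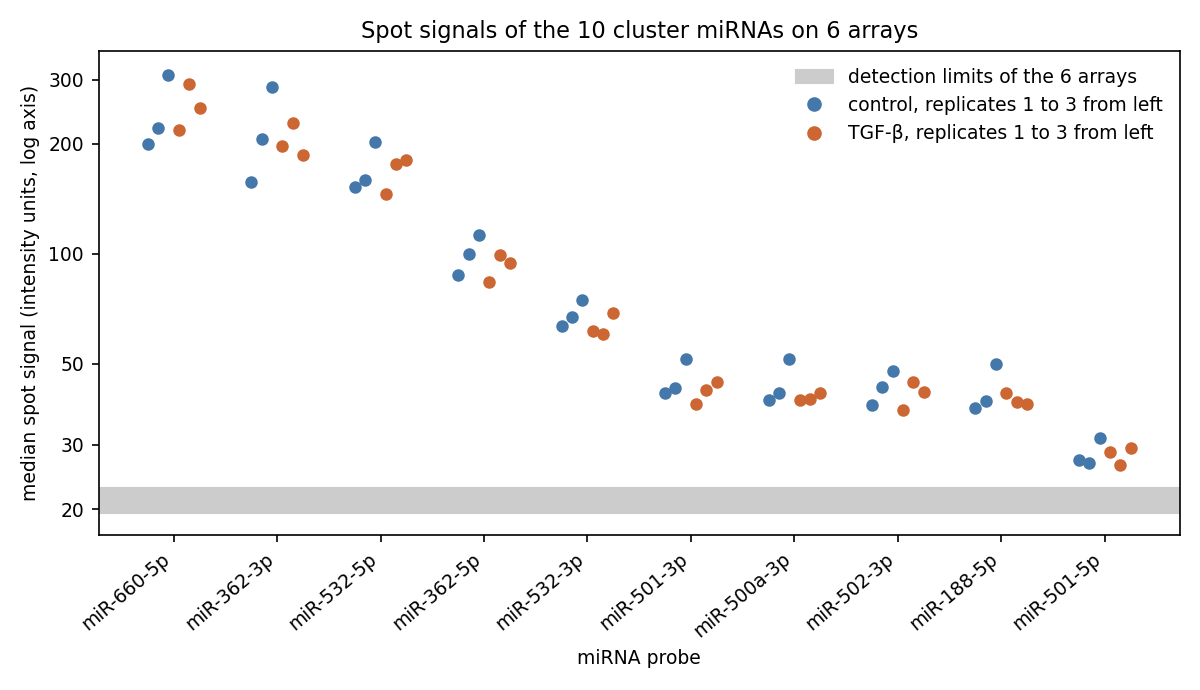
Median spot signal (intensity units, log axis) of the 10 members on each of the 6 arrays, with control arrays in blue and TGF-β arrays in orange. Every point lies above the grey band of detection limits (19.5 to 22.8 units), and the control and TGF-β points of each miRNA overlap.

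To ask whether TGF-β changed the cluster, signals were reduced by the mean of the blank spots, quantile normalized over all miRNA probes and compared on the log2 scale with limma. In limma 0 of the 10 members passed an adjusted p of 0.05, compared with 58 of the 1457 detected miRNAs (3.98%). At an unadjusted p under 0.05 limma gave 0 members, compared with 200 of all detected miRNAs (13.7%), while the methods' t-test gave 2 of the 10 members, compared with 195 of all detected miRNAs (13.4%), and 0 members after adjustment. In each of the 21 alternatives tried, the count of members past the adjusted threshold was also 0, where the count over all miRNAs ran from 0 (local background) to 65 (robust limma) and was 26 without TGF-β replicate 2, 33 without TGF-β replicate 3 and 35 without control replicate 2.

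The fold changes were small. In this fit 9 of the 10 members had a log2 fold change below 0, a count that was 6 with the deposited values, 5 with the local background of each spot and 7 to 10 with 1 array left out. The median of the 10 was -0.12, compared with -0.013 for all detected miRNAs, of which 52.5% were below 0. Without control replicate 1 it was -0.18 and without TGF-β replicate 3 it was -0.063. The members ran from -0.22 to 0.035, and the lower and upper quartiles of all detected miRNAs were -0.15 and 0.16.

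hsa-miR-500a-3p had the lowest value of the 10. Its normalized log2 values were 4.54, 4.59 and 4.71 without TGF-β and 4.46, 4.35 and 4.35 with it, and every TGF-β array was below every control array. The log2 fold change was -0.22 (standard error 0.11, 95% interval -0.47 to 0.016, adjusted p = 0.412 from limma). It was -0.090 and -0.22 with the local background (normexp offsets 50 and 0) and -0.10 in the deposited values.

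hsa-miR-501-3p, which acts on an AMPA receptor subunit in neurons, was close to it. Its log2 values were 4.68, 4.70 and 4.69 without TGF-β and 4.40, 4.52 and 4.52 with it, again with the groups apart. The log2 fold change was -0.21 (standard error 0.10, 95% interval -0.44 to 0.020, adjusted p = 0.428 from limma). With the local background (normexp offsets 50 and 0) it was -0.068 and -0.10, and in the deposited values -0.077. The exact permutation test (2-sided) gave p = 0.1 for both miRNAs, the smallest that 3 arrays against 3 can give. These were the only members whose groups did not overlap, 2 of 10, compared with 18.9% of all detected miRNAs in either direction and 10.1% that were lower with TGF-β. With the local background (both normexp offsets) and in the deposited values, 0 members had groups that did not overlap.

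hsa-miR-502-3p, 2 edits from hsa-miR-501-3p, had 4.44, 4.73 and 4.51 without TGF-β and 4.33, 4.64 and 4.36 with it, so that its groups overlapped. Its log2 fold change was -0.11 (95% interval -0.40 to 0.17), and the intervals of the 3 close copies overlap. It ran from -0.029 without control replicate 2 to -0.22 without TGF-β replicate 2, and was -0.013 in the deposited values. Signal shared between their probes was not tested.

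hsa-miR-660-5p was the member above 0, with a log2 fold change of 0.035 (95% interval -0.18 to 0.25). Its log2 values were 7.74, 7.74 and 7.97 without TGF-β and 7.72, 8.01 and 7.82 with it, and its sign turned when control replicate 1 or 2 or TGF-β replicate 2 was left out. It was at 0.30 and 0.61 with the local background (normexp offsets 50 and 0) and at 0.21 in the deposited values. hsa-miR-532-5p was the nearest to 0 in this fit, at -0.017 (95% interval -0.18 to 0.15), from 7.18, 7.22 and 7.28 without TGF-β and 7.15, 7.19 and 7.28 with it. Its sign turned when control replicate 3 or TGF-β replicate 1 was left out. It was at 0.097 in the deposited values and at 0.15 and 0.33 with the local background (normexp offsets 50 and 0).

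The remaining 5 members lay between -0.15 (hsa-miR-532-3p) and -0.048 (hsa-miR-501-5p), with overlapping groups. hsa-miR-362-5p was at -0.14, from 6.32 ± 0.10 in control cells to 6.18 ± 0.07 in TGF-β-treated cells on the log2 scale (SD, n = 3). hsa-miR-188-5p was at -0.13, a value that 1 array moved to -0.032 (without TGF-β replicate 3), -0.074 (without control replicate 3) or -0.25 (without TGF-β replicate 1). hsa-miR-362-3p was at -0.063, and its sign turned without control replicate 3 or TGF-β replicate 3 and in the deposited values (0.072). The sign of hsa-miR-501-5p turned without control replicate 1 (0.023) or TGF-β replicate 2 (0.056) and in the deposited values (0.068). The difference between the groups was larger than the SD of either group for 3 of the 10 members, hsa-miR-362-5p, hsa-miR-500a-3p and hsa-miR-501-3p.

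A p above the threshold does not show that a miRNA was unchanged, and the 95% intervals give the sizes left possible under the blank-mean processing. Taken over the 10 members, they reached from a fold change of 0.724 (hsa-miR-500a-3p) to 1.23 (hsa-miR-501-5p). All 10 intervals lay within 0.5 of 0 on the log2 scale, compared with 41.5% of the intervals of all detected miRNAs. The limit of 0.5 was chosen after the values were seen. The fit lets the spread depend on brightness, and all detected miRNAs include dimmer probes. The median standard error was 0.11 for the members and 0.18 for all, so the shares are not a like comparison. The members' intervals cover the spread between arrays, and neither a difference between the slides nor the choice of background. With the local background (normexp with an offset of 0) hsa-miR-660-5p was at 0.61 and hsa-miR-532-5p at 0.33, above the intervals of all 10 members. In that setting hsa-miR-532-3p (0.18) and hsa-miR-362-5p (0.17) were above the upper ends of their own intervals, 0.088 and 0.060.

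**Figure D2:**
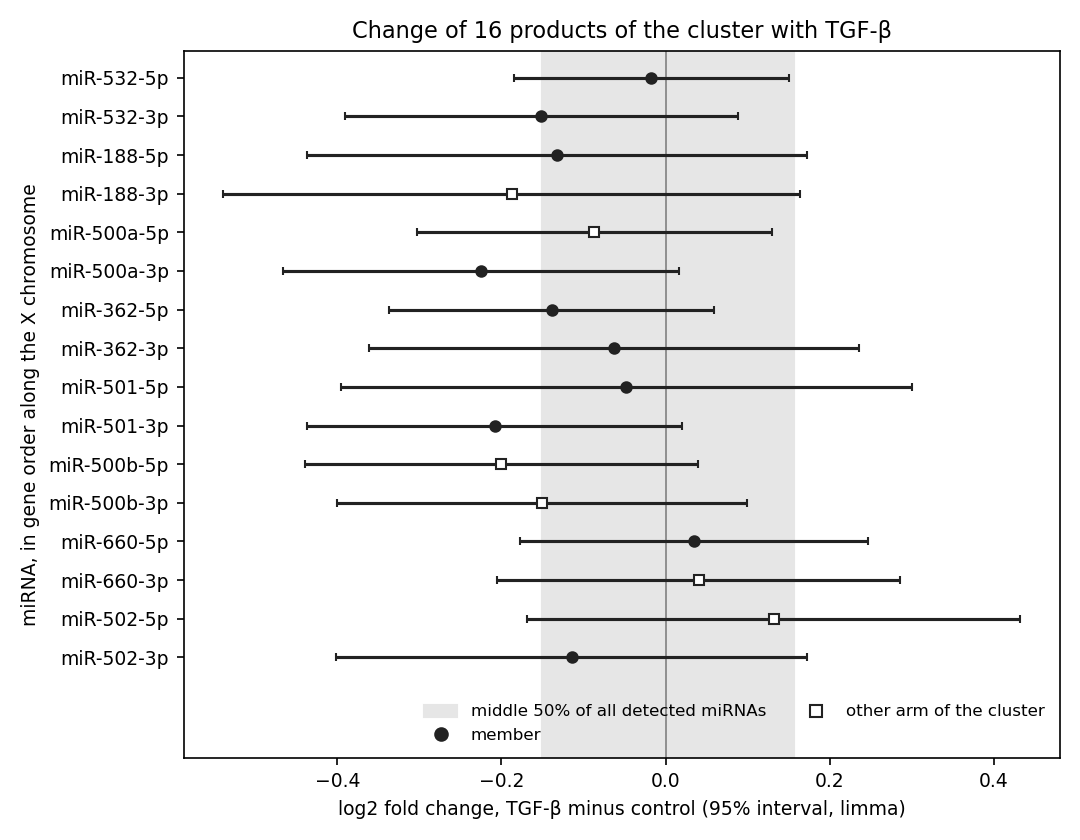
Log2 fold change of TGF-β against control with its 95% interval from limma for the 10 members (filled circles) and the other 6 products (open squares), from the first gene of the cluster at the top to the last. Every interval includes 0, and the members lie between -0.22 and 0.035, beside a grey band from the lower to the upper quartile of all detected miRNAs (-0.15 to 0.16).

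The deposited values, which the authors scaled to a median of 25 per array, gave another picture of level but no separation. hsa-miR-660-5p had 862 ± 109 in control cells and 1010 ± 257 in TGF-β-treated cells (SD, n = 3), hsa-miR-532-5p 588 ± 31.9 and 634 ± 111, and hsa-miR-501-5p 34.3 ± 2.31 and 36.0 ± 2.65. The groups overlapped for all 10 members. TGF-β replicate 2 alone was highest for 7 of the 10, and it had the largest scaling factor of the arrays, 4.78, compared with 3.37 to 4.31 for the others. In these values the median log2 fold change of all miRNAs was 0.11. The members' median minus that of all miRNAs was -0.12, compared with -0.11 in the quantile normalized values.

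Agreement between members was partial, and it was not set beside the agreement within other sets of miRNAs. Each member was centred on its own mean over the 6 arrays. The mean of the 10 was 0.10 on control replicate 3 and -0.093 on TGF-β replicate 3, the highest and the lowest of the arrays. On control replicate 3, 8 of the 10 members were above their own mean, and on TGF-β replicate 3 this held for 2. No array was high or low for all: control replicate 2 was the highest array for 4 members, and TGF-β replicate 1 the lowest for 4. The spread within a group ran from an SD of 0.014 (hsa-miR-501-3p in control cells) to 0.28 (hsa-miR-362-3p in control cells). As a description over the 6 arrays, which share their normalization, the 45 pairs of members had Pearson correlations from -0.80 (hsa-miR-532-3p with hsa-miR-660-5p) to 0.87 (hsa-miR-362-5p with hsa-miR-502-3p), with a median of 0.19 and 32 pairs above 0.

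**Figure D3:**
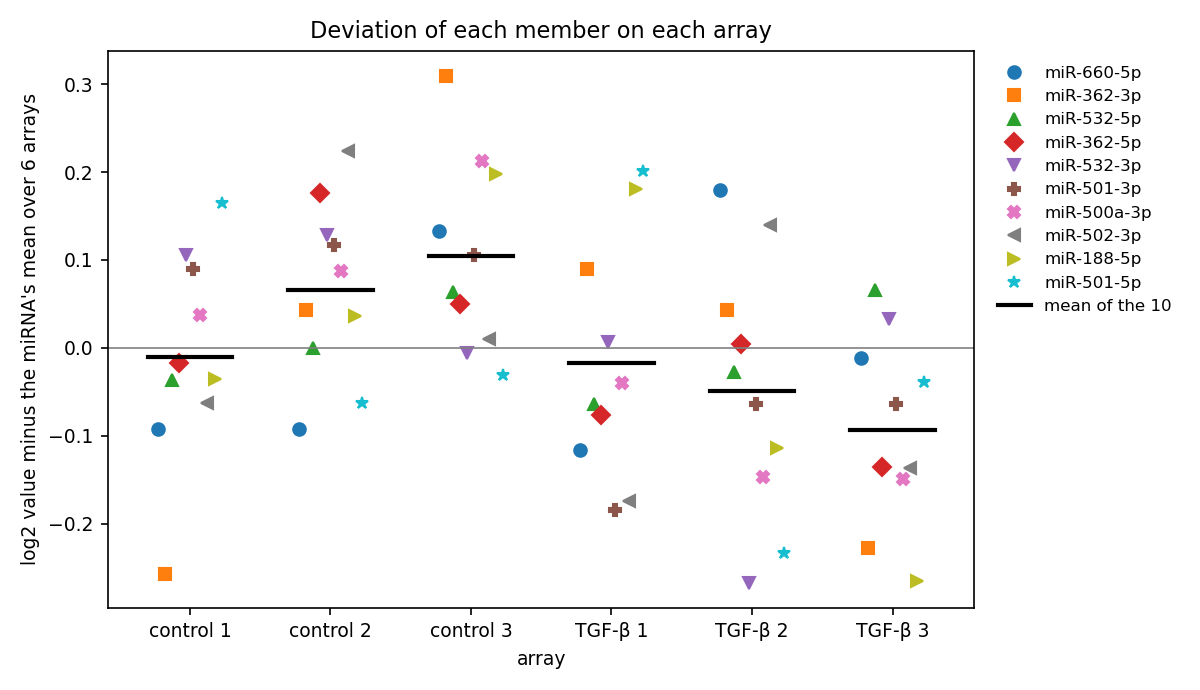
Log2 value of each member minus its own mean over the 6 arrays, by array, with black bars for the mean of the 10. The bars lie between -0.093 (TGF-β replicate 3) and 0.10 (control replicate 3), and single members spread by more than the bars differ.

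Among 1439 miRNAs outside the cluster that were tested and had a value on every array, hsa-miR-3184-3p (Pearson r = 0.97 over the 6 arrays), hsa-miR-548e-3p (0.96) and hsa-miR-197-5p (0.94) followed the mean of the 10 most closely. They were picked as the highest of 1439 correlations over only 6 arrays, a choice that favours high values. Shared regulation with the cluster was not tested. hsa-miR-3184-3p and hsa-miR-548e-3p came within 2.43 and 3.55 blank SDs of the blank mean on their dimmest array. hsa-miR-329-3p, which has the seed of hsa-miR-362-3p and lies outside the cluster, had a log2 fold change of 0.34 (adjusted p = 0.0646 from limma), but a value of -0.12 with the local background of each spot (normexp with an offset of 50). hsa-miR-6866-3p was detected on 4 of the 6 arrays.

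The 6 products outside the list of members gave a similar range. Of these, 0 passed the adjusted threshold in limma, or an unadjusted p under 0.05, and their median log2 fold change was -0.12. Of the strands of MIR500B, hsa-miR-500b-5p was at -0.20 (95% interval -0.44 to 0.039) and hsa-miR-500b-3p at -0.15 (95% interval -0.40 to 0.099). hsa-miR-188-3p was at -0.19, hsa-miR-500a-5p at -0.087 and hsa-miR-660-3p at 0.041, and leaving out 1 array moved them to -0.086 (without TGF-β replicate 3), -0.033 (without TGF-β replicate 2) and 0.0059 (without control replicate 1), respectively. hsa-miR-502-5p was at 0.13 (95% interval -0.17 to 0.43), and at 0.053 without control replicate 1 and 0.25 without control replicate 2. Its log2 values were 3.69, 4.09 and 3.75 without TGF-β and 3.98, 3.95 and 3.98 with it, inside the range of the control arrays. Groups did not overlap for hsa-miR-500a-5p, hsa-miR-500b-5p and hsa-miR-500b-3p, all lower with TGF-β. Of all detected miRNAs this held for 18.9% in either direction and for 10.1% that were lower with TGF-β. In the deposited values the groups of all 3 products overlapped, and hsa-miR-500a-5p was higher with TGF-β there (0.087) and with the local background. hsa-miR-500a-5p and hsa-miR-500b-5p share an unbroken run of 18 bases, and signal shared between their probes was not tested.

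Both strands of each of the 8 hairpins were measured, so the difference of 5p and 3p log2 values on each array was compared between the groups. For MIR502 the means differed by 0.25, from -0.72 ± 0.07 in control cells to -0.47 ± 0.19 in TGF-β-treated cells (SD, n = 3), but by -0.020 with the local background (normexp with an offset of 50), where the difference for MIR660 was 0.26. With the blank mean subtracted, the means differed by 0.16 for MIR501, 0.14 for MIR500A and 0.13 for MIR532, and for MIR188, MIR362, MIR500B and MIR660 the difference lay between -0.076 and 0.055. Single arrays carried much of these values, since MIR501 was at 0.0044 without TGF-β replicate 1, MIR532 at 0.041 without TGF-β replicate 2 and MIR500A at 0.080 without control replicate 3. The control and TGF-β values overlapped for all 8 hairpins. Exact permutation tests (2-sided) gave p between 0.2 and 0.9 over these 8 comparisons, unadjusted, in a design that cannot go below 0.1. Over the 8 strands of each arm, the median log2 fold change was -0.067 for 5p and -0.15 for 3p.

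**Figure D4:**
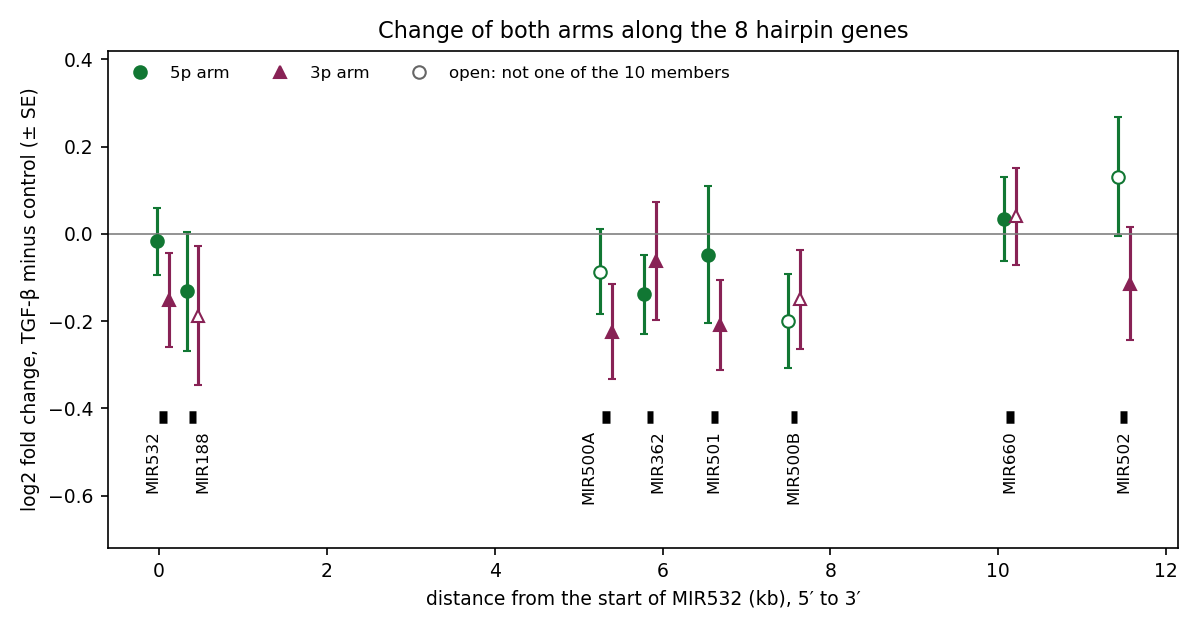
Log2 fold change (± standard error) of the 5p arm (circles) and 3p arm (triangles) of each of the 8 hairpin genes, placed by their distance in kb from the start of MIR532, with black boxes for the genes and open symbols for products that are not among the 10 members. The arms of MIR502 lie 0.25 apart, a gap that turned to -0.020 with the local background, and the control and TGF-β values of the arm difference overlap for all 8 genes.

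The sign of 4 of the 10 members, both strands of MIR532 and of MIR362, depended on the choice of background, and the other 6 kept theirs with the local background at both offsets, without subtraction and with an offset of 16. The local background of a spot rose to between 0.217 and 1.15 of its own signal for the members, with array medians of 0.529 to 0.935, and it exceeded the signal for 2 members on control replicate 1 and 1 on control replicate 3. With that background (normexp with an offset of 50) the members' median was 0.024 and the log2 fold changes ran from -0.14 to 0.30. In limma 0 of all 1457 miRNAs were called with that background (35 at an unadjusted p under 0.05), so the 0 members called there say nothing particular about the cluster.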

How the data were processed

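Total RNA of 3 control and 3 TGF-β-treated Panc-1 samples was labelled with Cy5 and hybridised to 3D-Gene miRNA arrays. The authors deposited, per array, the scanner's median intensity of 3200 spots and of their local background at 635 nm, not normalized, and a table of processed intensities. The processed values were rebuilt (blank mean subtracted, array median of detected miRNAs set to 25) within rounding, at most 0.5. The paper names no array test.

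The mean of the 320 blank spots, 5% left out at each end, was subtracted with a floor of 1. Flagged miRNA spots (3) were set as missing, miRNA probes were quantile normalized, and log2 values were compared in R 4.3.3 with limma 3.58.1 (lmFit, eBayes with trend). P-values were adjusted by Benjamini-Hochberg across 1457 miRNAs, those detected on all arrays of either group. Blank spots were used since the local background was higher around brighter spots (on control replicate 1, 23.1 units for hsa-miR-501-5p and 189 for hsa-miR-660-5p). Between arrays it did not always follow a probe's signal. For hsa-miR-362-3p it was 152 at a signal of 157 (control replicate 1) and 44.7 at 206 (control replicate 2). The code was tested on simulated data. Python 3.11.15 and matplotlib 3.10.9 drew the figures. Intervals are 95%. The number of arrays limits the precision.

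The members, lists and tests were chosen with earlier results of these data known. The text names the 10 members, the other 6 products, array miRNAs with a member's seed and the 3 miRNAs closest to the members' mean. Sequences and positions are from RefSeq, GRCh38.p14. Same-numbered arrays did not deviate together throughout (0.13, 0.11 and -0.027 over 1282 miRNAs), so numbers were not taken as pairs.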

Additional observations from a re-analysis of the deposited data

How the results depend on the processing

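In all 21 alternatives 0 members were called, with member adjusted p from 0.152 (methods' t-test) to 1. Of the 21, 7 leave fold changes as they are by construction; in the other 14, 120 of 140 member values kept their sign and 20 reversed, and of 84 values of the other products 77 kept it and 7 reversed. The cause of the changes was not tested. A fit with a replicate block gave 61 calls over all miRNAs in place of 58 and 0 members, median -0.12, smallest member adjusted p 0.445, and changed no call of a member. All calls numbered 31 with deposited values, 35 without normalization, 20 without the filter, 31 without trend, 17 by the methods' t-test, 0 with the local background (35 unadjusted), and 26 (without TGF-β replicate 2) to 51 (without control replicate 1) with 1 array left out.

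The members' median moved to 0.024 and 0.049 with the local background (normexp offsets 50 and 0), -0.064 without subtraction, -0.070 with an offset of 16 and -0.012 in deposited values; with 1 array left out it ran from -0.18 (without control replicate 1) to -0.063 (without TGF-β replicate 3). With normexp offsets 50 and 0, respectively, log2 fold changes reversed to 0.15 and 0.33 for hsa-miR-532-5p, 0.071 and 0.18 for hsa-miR-532-3p, 0.075 and 0.17 for hsa-miR-362-5p, 0.074 and 0.19 for hsa-miR-362-3p, 0.0078 and 0.023 for hsa-miR-188-3p, 0.024 and 0.11 for hsa-miR-500a-5p, -0.044 and -0.13 for hsa-miR-502-5p, and -0.12 and -0.23 for hsa-miR-329-3p. The change of the arm difference reversed to -0.14 and -0.24 for MIR188, -0.020 and -0.055 for MIR502 and 0.26 and 0.52 for MIR660, and to 0.0017 (offset 50) for MIR362 and -0.014 (offset 0) for MIR501. Without subtraction it was -0.015 for MIR188 and 0.013 for MIR660, and with an offset of 16 it was -0.014 and 0.011. MIR660 was at 0.075 with median scaling, 75th percentile scaling or no normalization. Deposited values gave 0.068 for MIR660, 0.097 for hsa-miR-532-5p, 0.072 for hsa-miR-362-3p, 0.087 for hsa-miR-500a-5p and 0.068 for hsa-miR-501-5p. With 1 array left out, signs turned within -0.053 to 0.010 for hsa-miR-532-5p, -0.20 to 0.078 for hsa-miR-362-3p, -0.16 to 0.056 for hsa-miR-501-5p, -0.048 to 0.11 for hsa-miR-660-5p, -0.070 to 0.18 for MIR188, -0.22 to 0.015 for MIR362 and -0.057 to 0.057 for MIR660. Without a turn of sign, 1 array moved hsa-miR-188-5p from -0.25 to -0.032, hsa-miR-502-3p from -0.22 to -0.029, hsa-miR-532-3p to -0.052 (without TGF-β replicate 2) and hsa-miR-362-5p to -0.087 (without control replicate 2), and of the other products hsa-miR-188-3p to -0.086, hsa-miR-500a-5p to -0.033, hsa-miR-660-3p to 0.0059 and hsa-miR-502-5p to between 0.053 and 0.25. hsa-miR-501-5p, the member nearest to the blank signal, had the widest interval of the 10.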
